A study of Homo sapiens with 4 samples.

Results

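Proteasome subunit genes were taken as the rows of the expression table whose Ensembl identifier maps to a protein-coding symbol made of PSMA, PSMB, PSMC, PSMD, PSME or PSMG and a number. This gave 47 genes among the 60617 rows. The study exposed 2 established human prostate cancer lines for 6 h to morusin, a prenylated flavone of mulberry root bark, and sequenced their total RNA. The 4 groups were 22Rv1 untreated, 22Rv1 with 75 µM morusin, PC3 untreated and PC3 with 46 µM morusin, each with 1 library. 22Rv1 came from a xenograft of a prostate carcinoma and was grown in RPMI, and PC3 came from a bone metastasis and was grown in F12, so dose and medium cannot be told apart from the line. No vehicle is named for the untreated cells. With 1 library per group no test within a line was possible, so what follows within a line compares 2 libraries and has no replicate check.

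The proteasome is the protease complex that degrades proteins tagged with ubiquitin. Its core particle (20S) is a barrel of alpha rings (PSMA genes), which gate entry, and beta rings (PSMB genes), of which PSMB5, PSMB6 and PSMB7 cut peptide bonds. The cap (19S) binds and unfolds substrates with ATPases (PSMC genes) and binds and removes ubiquitin with non-ATPase subunits (most PSMD genes). Interferon induces the alternative catalytic subunits PSMB8, PSMB9 and PSMB10, which form the immunoproteasome and favour peptides for class I antigen presentation. Cells that lack proteasome activity raise most subunit genes together through the factor NRF1 (gene NFE2L1), which binds antioxidant response elements in their promoters.

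Levels are FPKM, fragments per kilobase of transcript scaled to the library total, as the authors deposited them. The FPKM of a library summed to 335458 to 408628. The spacing of low values put the depth at 19.1 to 40.6 M read pairs (M, mega) per library, which is a rough estimate. The labels were checked against marker genes. All 6 androgen axis genes checked, such as KLK4, were at 1 FPKM or more in both 22Rv1 libraries. In the PC3 libraries 2 of the 6 were, and their summed level was 2.90 to 3.96 FPKM against 666 to 670 in 22Rv1. Of 9 leukocyte, fibroblast and endothelial markers none reached 1 FPKM in 22Rv1 and 3 did in PC3, where CD68 was at 26.0 and 39.9 FPKM and PTPRC at 0.052 and 0.0254. Their part in the results was not tested. In bulk RNA, fewer cells of a type and less RNA per cell cannot be told apart.

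Short promoter stretches are shown because they hold letters that match elements through which subunit genes are known to be induced. A match is of letters only, and binding was not tested. Promoter windows ran from 250 bases before to 50 after the start, came from RefSeq on GRCh38.p14, and were found for 41 of the 47 genes. PSMA7, PSMB1, PSMB6, PSMB7, PSMD4 and PSMG3 had no entry. The core of the antioxidant response element was searched as TGACNNNGC on both strands. It lay in the windows of 15 of 41 members (36.6%), or in 15 of their 49 windows (30.6%), against 13.3% of all 35116 promoter windows. Among them were the core gene PSMB3 and the cap genes PSMD3 and PSMD12, of which the match upstream of any annotated exon is in capitals below, on the strand of the gene. PSMD3 has a second match, past its start, that is not shown.
PSMB3 (chr17:38752597-38752685, plus strand): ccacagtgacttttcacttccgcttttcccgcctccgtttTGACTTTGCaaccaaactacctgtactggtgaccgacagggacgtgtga
PSMD3 (chr17:39980730-39980796, plus strand): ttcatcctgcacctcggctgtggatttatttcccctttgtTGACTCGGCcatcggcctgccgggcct
PSMD12 (chr17:67366694-67366782, minus strand): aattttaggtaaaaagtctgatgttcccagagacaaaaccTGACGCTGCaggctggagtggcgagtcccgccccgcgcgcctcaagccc

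The interferon-stimulated response element was searched on both strands as GAAA, any 2 bases, and GAAA. It lay in the windows of 7 of 41 members (17.1%), or in 7 of 49 windows (14.3%), against 3.57% of all windows. In 5 of them the 10 bases were the same, GAAAGCGAAA or its reverse complement TTTCGCTTTC. These 5 are shown because they include the immunoproteasome genes PSMB8 and PSMB10 and both interferon-induced activator genes, PSME1 and PSME2. The fifth was PSMG4, an assembly chaperone gene. The remaining matches lay in the core genes PSMA4 and PSMB4, and the immunoproteasome gene PSMB9 had none. The PSME1 match lies past the start, and the PSMB8 match lies across it. The matches are in capitals, on the strand of the gene, and each is a match of letters, not a mapped binding site.
PSMB8 (chr6:32844032-32844061, minus strand): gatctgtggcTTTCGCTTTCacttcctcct
PSMB10 (chr16:67936852-67936881, minus strand): gggtaaaggcGAAAGCGAAAgcaggaagta
PSME1 (chr14:24136189-24136218, plus strand): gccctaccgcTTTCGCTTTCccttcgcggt
PSME2 (chr14:24146619-24146648, minus strand): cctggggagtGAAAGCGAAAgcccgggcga
PSMG4 (chr6:3258904-3258933, plus strand): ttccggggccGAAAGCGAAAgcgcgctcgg

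The first comparison asked how high these genes stood in the 2 untreated lines. Core and cap genes were abundant in both. Core genes with a detected transcript ranged from 16.9 FPKM for PSMA5 to 211 for PSMB4 in 22Rv1, and from 14.1 for PSMA5 to 189 for PSMA7 in PC3. Cap genes ranged from 19.8 FPKM for PSMD12 to 122 for PSMD2 in 22Rv1, and from 32.5 for PSMD6 to 356 for PSMD2 in PC3. The genes of assembly chaperones stood lower, at 6.10 to 24.7 FPKM in 22Rv1 and 4.999 to 37.7 in PC3. PSMA8, an alpha subunit of the testis, was listed at 0 in all 4 libraries, and PSMB11, the beta subunit of the thymus, was at 0.0233 FPKM in untreated PC3 and listed at 0 in the others. All 47 genes together made up 0.68% of the FPKM of untreated 22Rv1 and 0.904% of that of untreated PC3.

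**Figure D1:**
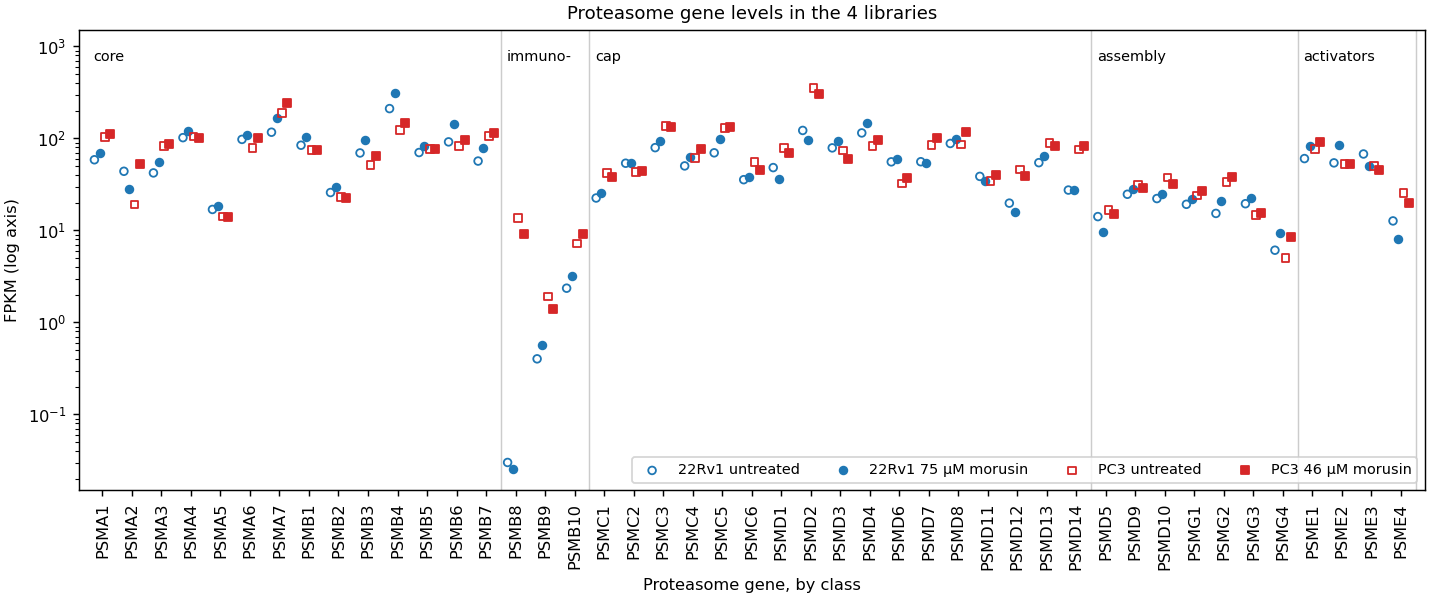
FPKM (log axis) of the 45 proteasome genes at 1 FPKM or more in a library, ordered by class, with 1 point per library. Core and cap genes span 14.0 FPKM (PSMA5 in treated PC3) to 356 FPKM (PSMD2 in untreated PC3), and PSMB8 separates the lines, with PC3 at 13.7 and 9.25 FPKM and 22Rv1 near 0.03.

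Of 45 members at 1 FPKM or more in either untreated library, 8 stood at least 2-fold apart on the FPKM + 1 scale (17.8%), of which 1 was higher in 22Rv1 and 7 were higher in PC3. Over all 14363 genes measured the share was 39.0%, made up of 19.8% with the higher level in 22Rv1 and 19.2% with the higher level in PC3. The 7 were the immunoproteasome genes PSMB8, PSMB9 and PSMB10, the cap genes PSMD2, PSMD12 and PSMD14, and the assembly chaperone gene PSMG2. PSMD14, the deubiquitinase of the cap, was at 27.5 FPKM in 22Rv1 and 75.9 in PC3. PSMD2, a scaffold of the cap, was at 122 and 356. The gene higher in 22Rv1 was PSMA2, at 44.0 and 19.1, and summed with a coding row that overlaps it the levels were 44.2 and 43.2, which are not 2-fold apart. The median log2 ratio of 22Rv1 over PC3 was -0.31 over the members.

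Treatment was compared next, in 22Rv1. Of 43 measured members, those at 1 FPKM or more in a library of the line, 33 had a log2 change above 0 and none was 2-fold apart or more. Over all 13361 genes measured, 49.4% were above 0 and 4.50% were 2-fold apart or more. The median log2 change was 0.18 for the members and -0.01 for all genes. At 1.5-fold, 4 of 43 members passed, against 23.3% of all genes: PSMB6 and PSME2 higher, and PSME4 and PSMA2 lower. This count was 2 with the length trend removed and 2 with a pseudocount of 5. The median was -0.01 once the treated library was rescaled to the FPKM sum of the untreated one, with the median of all genes then at -0.17, and this left 21 of 43 members and 36.8% of all genes above 0. The sign of the members' median thus depends on the scaling.

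In PC3, 25 of 45 measured members were above 0, against 44.2% of all 12907 genes. A single member, PSMA2, was 2-fold apart or more, against 3.88% of all genes, and 2 members passed 1.5-fold, PSMA2 and PSMG4, against 14.9%. The median log2 change was 0.06 for the members and -0.05 for all genes. After rescaling, these medians were -0.04 and -0.13, with 20 of 45 members and 35.1% of all genes above 0. The median counting error of a member's log2 ratio was 0.051 in 22Rv1 and 0.038 in PC3. It covers counting only, and the spread between cultures was not measured.

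**Figure D2:**
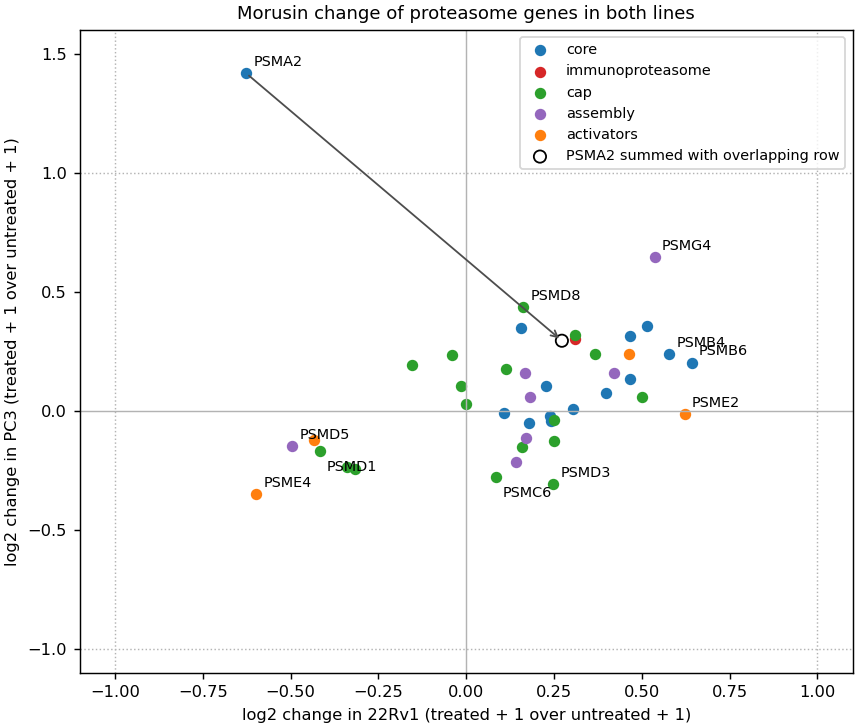
Log2 change with morusin in 22Rv1 (x axis) against PC3 (y axis) for the 43 proteasome genes measured in both lines, coloured by class, with dotted lines at 2-fold. No gene but PSMA2 passes a dotted line, and the arrow shows where PSMA2 moves (0.27 and 0.30) when its row is summed with the overlapping coding row.

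Among 43 members measured in both lines, 21 were above 0 in both and 6 below 0 in both. Over 11240 genes measured in both, 30.2% were above 0 in both. The changes of the members in the 2 lines had Spearman rho = 0.42 and Pearson r = 0.12, and without PSMA2 rho = 0.52 and r = 0.56 (n = 42). Genes of 1 complex are not independent, and the members share 4 libraries and a relation to transcript length given below. A treatment effect common to both lines was sought with limma, in a fit with terms for line and treatment. No member of 45 tested passed at an adjusted p of 0.05, and the smallest adjusted p was 0.204, for PSMG4. Over all 13980 genes, 82 passed (0.587%). At an unadjusted p under 0.05 there were 3 members, PSMG4, PSMA7 and PSME4, against 18.5% of all genes. The test rests on 2 lines in place of replicate cultures, and has 1 residual degree of freedom before variances are pooled across genes.

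Within the core, all 7 constitutive beta genes were above 0 in 22Rv1, against 49.4% of all genes. Their median was 0.47, and 0.14 with the length trend removed. PSMB6, the caspase-like catalytic subunit, was at 91.8 FPKM untreated and 144 treated in 22Rv1, and at 82.7 and 95.4 in PC3. PSMB4, a structural beta subunit, was at 211 and 316 FPKM in 22Rv1 and at 124 and 146 in PC3. Both were higher in each treated library, by less in PC3. With the length trend removed PSMB6 was at 0.28 in 22Rv1 and 0.11 in PC3, and PSMB4 at 0.25 and 0.15. PSMB7, the trypsin-like subunit, was at 56.8 and 78.8 FPKM in 22Rv1 and at 105 and 116 in PC3. PSMB5, the chymotrypsin-like subunit, was at 70.3 and 83.1 FPKM in 22Rv1 and at 77.3 and 76.1 in PC3. PSMB5 thus had log2 changes of 0.24 and -0.02, the smaller of the 3 catalytic genes in both lines, and in PC3 it lay above 0 (0.03) after median centring. With the length trend removed PSMB5 was at -0.08 in 22Rv1 and -0.11 in PC3, and PSMB1 was at -0.04 in 22Rv1. This left 5 of the 7 beta genes above 0 in 22Rv1, against 49.1% of all genes. The 7 constitutive beta genes in PC3 had a median of 0.13, with PSMB5 and PSMB2 below 0. That median was 0.10 with the length trend removed. The 7 measured alpha genes had medians of 0.23 in 22Rv1 and 0.11 in PC3, or 0.05 and 0.07 with the length trend removed. PSMA7, an alpha subunit, was at 117 and 167 FPKM in 22Rv1 and at 189 and 243 in PC3. PSMA6, another, was at 97.7 and 109 FPKM in 22Rv1 and at 78.7 and 100.4 in PC3. Both were higher in each treated library, with changes in PC3 of 0.36 and 0.35. With the length trend removed PSMA7 was at 0.17 in 22Rv1 and 0.27 in PC3, and PSMA6 at -0.19 and 0.25. PSMA1 and PSMA3 were also above 0 in both lines before that step, at 0.23 and 0.40 in 22Rv1 and 0.11 and 0.07 in PC3. With the length trend removed PSMA1 was at 0.06 in 22Rv1 and 0.05 in PC3, and PSMA3 at 0.05 and -0.02. PSMA4 and PSMA5 had changes of 0.24 and 0.11 in 22Rv1, and were at -0.04 and -0.01 in PC3, where both lay above 0 after median centring. With the length trend removed PSMA4 was at -0.09 in 22Rv1 and -0.14 in PC3, and PSMA5 at 0.17 and 0.07.

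PSMA2, another alpha subunit, was the gene with the widest swing. It was at 44.0 FPKM untreated and 28.1 treated in 22Rv1, and at 19.1 untreated and 52.8 treated in PC3. The treated library was lower in 22Rv1 (log2 change -0.63) and higher in PC3 (1.42). PSMA2 lies at chr7:42916857-42932223 on the minus strand of GRCh38. A second coding row on that strand, ENSG00000256646 at chr7:42909273-42932174, shares 781 bases of its annotated exons. That row was at 0.192 and 25.4 FPKM in 22Rv1 and at 24.1 and 0.496 in PC3, high in exactly the 2 libraries where PSMA2 was low. The rows summed to 44.2 and 53.5 FPKM in 22Rv1 and to 43.2 and 53.3 in PC3. On the sums the log2 change was 0.27 in 22Rv1 and 0.30 in PC3, so no member was left at 2-fold in either line. PSMA1, PSMA6, PSMB10 and PSMD9 also have a same-strand coding row without a symbol of its own. Summing moved PSMA1 and PSMA6 by under 0.1, while PSMB10 went from 0.31 to 0.48 in 22Rv1. On either strand, 22 members share exon bases with another row, and for 17 of them such a row reached 1 FPKM. On the other strand, NRDE2 shares 75.8% of the exon bases of PSMC1, and SLC22A23 13.3% of those of PSMG4. Summed with SLC22A23, PSMG4 had changes of 0.22 in 22Rv1 and 0.47 in PC3. Rows on the other strand were left out of the alternative with overlapping rows summed. Reads of overlapping genes cannot be assigned from these values.

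**Figure D3:**
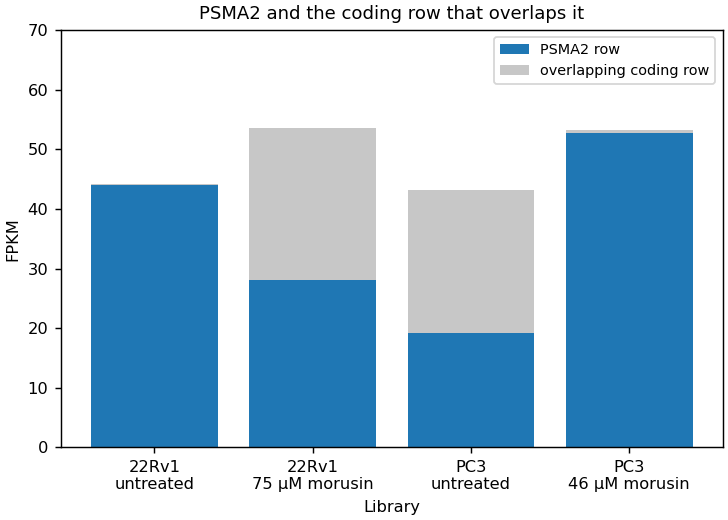
Stacked FPKM of PSMA2 and of the coding row that overlaps it, in each of the 4 libraries. The overlapping row is near 25 FPKM in treated 22Rv1 and untreated PC3 and near 0 in the others, and the stacks reach 53.5 and 53.3 FPKM in the treated libraries against 44.2 and 43.2 in the untreated ones.

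Cap genes went both ways: 11 of 17 were above 0 in 22Rv1 and 9 of 17 in PC3, against 13 and 10 of 14 core genes and 49.4% and 44.2% of all genes. The core counts were 10 and 8 after rescaling, against 36.8% and 35.1% of all genes. With the length trend removed they were 9 and 10, against 49.1% and 51.3%. Core medians were 0.08 in 22Rv1 and 0.02 in PC3 after rescaling, and cap medians -0.08 and -0.07. With the length trend removed core medians were 0.07 and 0.08, and cap medians 0.01 and 0.0032. In 22Rv1 all 6 ATPase genes were above 0, from 0.00 for PSMC2 to 0.50 for PSMC5 (median 0.20), and 5 of 11 non-ATPase genes were, from -0.42 for PSMD1 to 0.37 for PSMD4 (median -0.02). In PC3 3 of 6 ATPase genes were above 0 (median -0.01) and 6 of 11 non-ATPase genes (median 0.11). The median length was 1.56 kb for ATPase genes and 1.95 kb for non-ATPase genes. With the length trend removed the ATPase median was 0.10 in 22Rv1 and -0.02 in PC3. The non-ATPase median was then -0.09 and 0.10, and PSMC6 was at -0.06 in 22Rv1. PSMD3, a lid subunit, was at 79.0 and 94.0 FPKM in 22Rv1 and at 74.1 and 59.7 in PC3, the lowest change of the cap in PC3. PSMD8, also of the lid, was at 88.2 and 98.8 FPKM in 22Rv1 and at 86.1 and 117 in PC3, the highest of the cap there. PSMD8 in 22Rv1 was at -0.03 after rescaling. PSMD1 and PSMD2, the largest scaffold subunits of the cap, and PSMD12, of the lid, were lower in both treated libraries. PSMD1 was at -0.27 in 22Rv1 and -0.04 in PC3 with the length trend removed. PSMD2 was then at -0.28 and -0.16, and PSMD12 at -0.13 and -0.10. PSMD1 was at 48.2 and 35.8 FPKM in 22Rv1 and at 78.7 and 69.9 in PC3. PSMD2 was at 122 and 96.3 in 22Rv1 and at 356 and 302 in PC3, and PSMD12 at 19.8 and 15.7 and at 46.1 and 38.7. PSMD4, a ubiquitin receptor, stood higher in both, at 115 and 148 in 22Rv1 and at 82.3 and 97.2 in PC3. The ATPase gene PSMC4 was higher in both as well, at 50.3 and 62.5 in 22Rv1 and at 61.3 and 76.8 in PC3. PSMC6, another ATPase gene, was at 35.6 and 37.8 in 22Rv1 and at 55.3 and 45.4 in PC3, with changes of 0.08 and -0.28. PSMD14 was at 27.5 and 27.2 in 22Rv1 and at 75.9 and 81.8 in PC3, so the treated libraries stayed on the side of their line.

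The core median minus the cap median was 0.16 in 22Rv1 and 0.09 in PC3. The classes differ in transcript length. The median length was 0.954 kb for core genes and 1.59 kb for cap genes. Over all genes, shorter transcripts had higher changes in both lines, with Spearman rho = -0.52 over 13310 genes in 22Rv1 and -0.37 over 12868 in PC3. Among the members rho was -0.64 (n = 43) in 22Rv1 and -0.44 (n = 45) in PC3.

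In 22Rv1 the 13 members of up to 1 kb had a median of 0.47, and all 2203 genes of that length had 0.45. The 5 members of 3 to 5 kb had a median of -0.32, and all 2979 genes of that length had -0.25. The 6 members of 2 to 3 kb had 0.13 against -0.03 in 22Rv1, and -0.13 against -0.04 in PC3. PSME4, the 1 member over 5 kb, had -0.60 against -0.44 in 22Rv1. Members thus stood close to genes of like length in some bins and apart from them in others. With the trend on length removed, the median of the members was 0.06 in 22Rv1 and 0.04 in PC3, and core minus cap was 0.06 and 0.08. In 22Rv1 26 of 43 members and 49.1% of all genes were then above 0. The part of length in the core and cap difference was otherwise not tested.

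**Figure D4:**
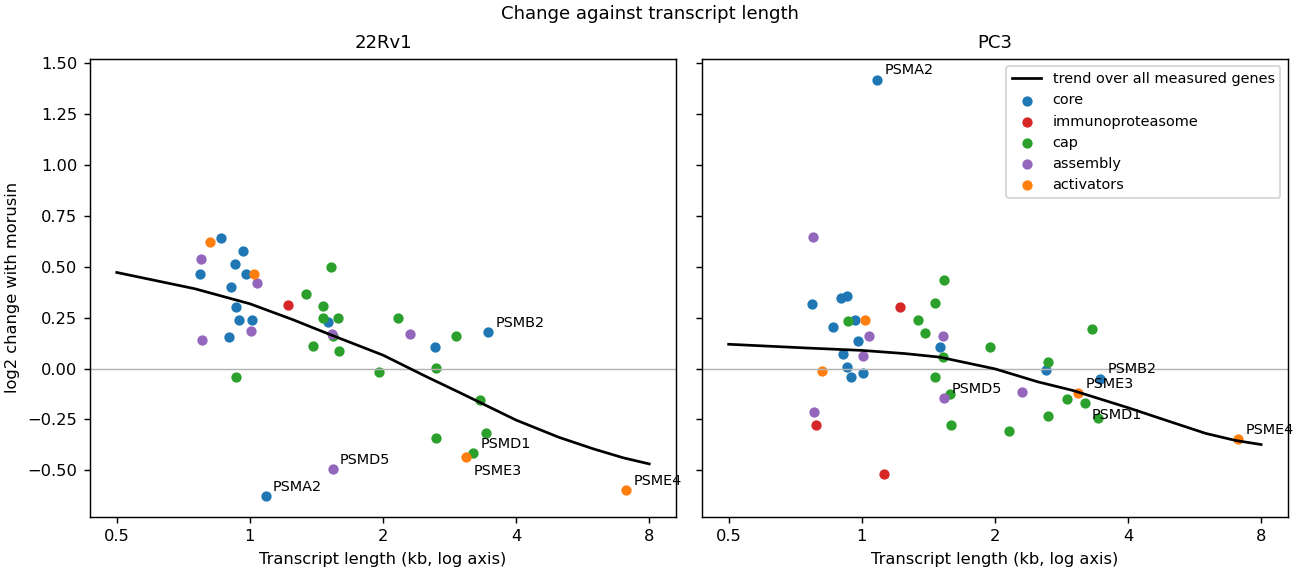
Log2 change with morusin against transcript length (kb, log axis) in each line, with proteasome genes as points coloured by class and the trend over all measured genes as a black line. Most points follow the line downward from short to long transcripts, with PSMA2 and PSMD5 under it in 22Rv1 and PSMA2 far above it in PC3.

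Assembly chaperones guide the particles together and are not part of the finished complex. The 4 genes for core assembly, PSMG1 to PSMG4, were all above 0 in both lines, against 30.2% of all genes measured in both. Their medians were 0.30 in 22Rv1 and 0.16 in PC3, and 0.06 and 0.09 with the length trend removed. PSMG4 was at 6.10 and 9.29 FPKM in 22Rv1 and at 4.999 and 8.40 in PC3, with log2 changes of 0.54 and 0.65 and counting errors of 0.184 and 0.156 on the log2 ratio. It was higher in both treated libraries, and its transcript is short, at 0.775 kb. With the length trend removed its changes were 0.15 and 0.55. PSMG2 was at 15.3 and 20.9 FPKM in 22Rv1 and at 33.8 and 37.9 in PC3. PSMG1, its partner, was at 19.2 and 21.7 in 22Rv1 and at 24.1 and 27.0 in PC3. PSMG3 was at 19.5 and 22.3 in 22Rv1 and at 14.8 and 15.5 in PC3. PSMG1 and PSMG3 in 22Rv1 and PSMG3 in PC3 were just under 0 after rescaling, at -0.02, -0.0068 and -0.03. With the length trend removed PSMG3 was at -0.13 in 22Rv1 and -0.03 in PC3.

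Of the 3 genes for cap assembly, 2 were above 0 in 22Rv1 and none in PC3, against 49.4% and 44.2% of all genes. PSMD5, which holds the ATPase PSMC2 during assembly, was at 14.1 and 9.74 FPKM in 22Rv1 and at 16.7 and 14.96 in PC3. It was lower in both treated libraries (-0.50 and -0.15), and in 22Rv1 it stood further below genes of its length, at -0.66. PSMD9 was at 24.7 and 27.95 FPKM in 22Rv1 and at 31.3 and 28.8 in PC3. PSMD10, known as gankyrin, was at 22.2 and 24.6 FPKM in 22Rv1 and at 37.7 and 32.4 in PC3. PSMD9 and PSMD10 in 22Rv1 were below 0 after rescaling (-0.02 and -0.05), and PSMD10 was at -0.24 there with the length trend removed.

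The level of PSMB8 separated the lines by more than treatment did in either. PSMB8 (chr6:32840717-32844703, minus strand) was at 0.03 and 0.0255 FPKM in 22Rv1, under the 0.114 and 0.14 FPKM that 3 read pairs give there, and at 13.7 untreated and 9.25 treated in PC3. PSMB9 (chr6:32844136-32859585, plus strand) was at 0.402 and 0.564 FPKM in 22Rv1 and at 1.91 and 1.40 in PC3. PSMB10, on chromosome 16, was at 2.36 and 3.16 FPKM in 22Rv1 and at 7.23 and 9.14 in PC3. In PC3 the treated library was thus lower for the neighbours PSMB8 and PSMB9 and higher for PSMB10. PSMB8 and PSMB9 share 139 bases of annotated exons on opposite strands, so their 2 values may not be independent.

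A ratio within a library does not depend on its scaling, so each gene was set against its constitutive counterpart. PSMB8 made up 15.1% of PSMB8 and PSMB5 together in untreated PC3 (95% counting interval 14.0 to 16.2) and 10.8% in treated PC3 (9.72 to 12.1). The treated minus untreated difference in the log2 ratio of PSMB8 to PSMB5 in PC3 was -0.54, with an interval from -0.76 to -0.33. PSMB9 made up 2.26% of PSMB9 and PSMB6 in untreated PC3 (1.76 to 2.89) and 1.45% in treated PC3 (1.03 to 2.05), on 61.1 and 31.7 estimated read pairs. PSMB10 made up 6.41% and 7.32% of PSMB10 and PSMB7 in PC3, and the interval of its change in log2 ratio, from -0.02 to 0.43, held 0. In 22Rv1 no pair had an interval without 0, and PSMB8 there allowed a share of at most 0.162% untreated and 0.168% treated. Normal-theory intervals from inferred pairs cover counting error only, not the spread between cultures.

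**Figure D5:**
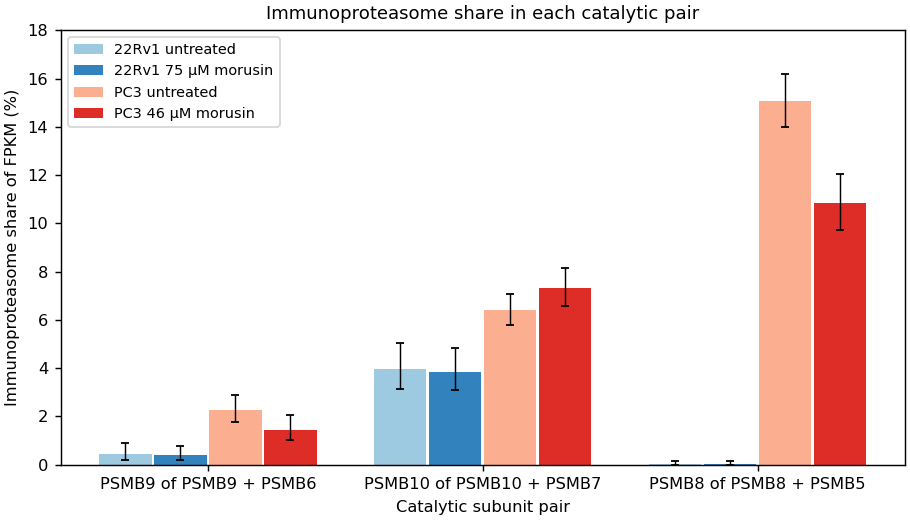
Immunoproteasome share (%) of the summed FPKM in each catalytic pair, in 4 libraries, with 95% counting intervals as error bars (for PSMB8 in 22Rv1, from 0 to the share that 3 read pairs give). PSMB8 stands at 15.1% in untreated and 10.8% in treated PC3 and near 0 in both 22Rv1 libraries.

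Alternative activators open the core without the cap. PSME1, a subunit of the interferon-induced ring, was at 60.4 and 83.8 FPKM in 22Rv1 and at 77.4 and 91.6 in PC3. PSME2, its partner, was at 54.2 and 84.0 in 22Rv1 and at 53.2 and 52.7 in PC3. PSME2 was thus 1.54-fold higher in treated 22Rv1 on the FPKM + 1 scale, and in PC3 its change was -0.01, or 0.04 after median centring. With the length trend removed PSME2 was at 0.25 in 22Rv1, under 1.5-fold, and PSME1 at 0.15. PSME3, the nuclear activator, was at 67.8 and 49.9 FPKM in 22Rv1 and at 49.96 and 45.9 in PC3. PSME4, which encodes PA200, was at 12.7 and 8.05 FPKM in 22Rv1 and at 25.6 and 19.9 in PC3. PSME3 and PSME4 were lower in both treated libraries, and both transcripts are long, at 3.08 and 7.10 kb. With the length trend removed PSME4 was at -0.15 in 22Rv1 and 0.01 in PC3, and PSME3 at -0.30 and -0.01.

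Other genes of the pathway came from lists chosen for it. Of 11 genes for NRF1 and its processing, 2 were above 0 in 22Rv1 and 5 in PC3, against 49.4% and 44.2% of all genes. At 2-fold, 1 was lower in 22Rv1 (DDI2) and 2 were lower in PC3 (VCP and MAFG), against 4.50% and 3.88% of all genes either way, and none was higher. With the length trend removed none of the 3 was 2-fold apart, at -0.53 for DDI2, -0.82 for VCP and -0.92 for MAFG. NFE2L1 was at 37.3 and 30.7 FPKM in 22Rv1 and at 97.8 and 106 in PC3. DDI2, the protease that cleaves NRF1, was at 17.4 and 7.91 FPKM in 22Rv1 and at 3.43 and 1.95 in PC3, on a transcript of 10.6 kb. VCP, the ATPase that extracts NRF1 from the ER, was at 106 and 98.6 FPKM in 22Rv1 and at 90.9 and 43.6 in PC3. In PC3 its cofactor NPLOC4 was at 49.5 and 28.9, and the small MAF genes MAFG and MAFK, partners of NRF1, were at 9.89 and 4.23 and at 18.01 and 9.15. In 22Rv1 NPLOC4 was at 35.3 and 29.98, MAFG at 11.2 and 7.70 and MAFK at 12.6 and 17.0.

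Among genes for ubiquitin, UBB, a polyubiquitin gene, was at 376 and 661 FPKM in 22Rv1 and at 351 and 671 in PC3. RPS27A, a fusion of ubiquitin and a ribosomal protein, was at 158 and 246 FPKM in 22Rv1 and at 114 and 126 in PC3. Both were higher in each treated library, and RPS27A by less in PC3 (0.14) than in 22Rv1 (0.64). With the length trend removed RPS27A was at 0.04 in PC3 and 0.24 in 22Rv1, and UBB at 0.84 and 0.50.

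Of 11 subunits and partners named outside the PSM series, none was 2-fold apart in 22Rv1 and 1 was 2-fold lower in PC3 on the FPKM + 1 scale, against 4.50% and 3.88% of all genes. That gene was UBE3C, a ubiquitin ligase on the cap, at 37.7 and 25.1 FPKM in 22Rv1 and at 33.2 and 15.5 in PC3. It was lower in both treated libraries. SEM1, the smallest cap subunit, was at 24.8 and 50.2 in 22Rv1, 1.98-fold apart on the FPKM + 1 scale, and at 17.5 and 18.9 in PC3. POMP, the core maturation factor, was at 22.0 and 30.6 in 22Rv1 and at 26.5 and 28.5 in PC3. SEM1 and POMP were both higher by more in 22Rv1 than in PC3. With the length trend removed SEM1 was at 0.60 in 22Rv1 and 0.0067 in PC3, and POMP at 0.25 and 0.04. USP14, a deubiquitinase on the cap, was at 41.5 and 30.7 in 22Rv1 and at 55.4 and 43.9 in PC3. PSMF1, an inhibitor of the core, was at 16.6 and 17.6 in 22Rv1 and at 23.9 and 27.5 in PC3. Of the 11 genes for class I antigen processing, 8 were measured in 22Rv1 and 10 in PC3, and none was 2-fold apart. Above 0 were 5 of 8 in 22Rv1 and 4 of 10 in PC3, against 49.4% and 44.2% of all genes. Their medians were 0.22 and -0.05, or 0.32 and 0.09 with the length trend removed. B2M, the light chain of class I molecules, was at 58.0 and 95.3 FPKM in 22Rv1 and at 257 and 292 in PC3. TAP1, the peptide transporter gene beside PSMB9, was at 10.0 and 6.99 FPKM in PC3, lower in the treated library as PSMB8 and PSMB9 were, and at 3.39 and 4.61 in 22Rv1.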

How the data were processed

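The authors deposited 1 table of FPKM for 60617 Ensembl genes in 4 libraries of total RNA. Per the labels' protocols, libraries were made with the TruSeq RNA v2 kit and read as pairs of 150 bases. Per the submitters' processing notes, the tools were Trimmomatic, HISAT2 and StringTie and the build was GRCh38. For the annotation release and the strand setting, nothing is given in the sources used here. FPKM are relative to a library's total, so abundant transcripts move all others.

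The members, lists and tests were chosen with earlier results of these data known. Symbols came from a gene name table (60261 rows matched). Positions, gene types and transcript lengths (the median over a gene's coding transcripts in the basic set) were read from GENCODE 29 (GRCh38), and the authors may have used another annotation. All 47 members had a length. Changes are log2 of (treated FPKM + 1) over (untreated FPKM + 1). This scale understates low genes. A gene was measured in a line if either of its libraries had 1 FPKM or more. Sizes of 2-fold and 1.5-fold were used. The shared response was tested with limma 3.58.1 (R 4.3.3) on log2(FPKM + 1) with a mean trend in the prior variance and Benjamini-Hochberg adjustment, for genes at 1 FPKM or more in at least 2 of 4 libraries. Treated and untreated libraries are paired by line, as labelled. The length trend was a lowess fit (fraction 0.3) of change on log2 length over all measured genes.

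Depth came from single-exon genes of 600 to 5000 bases, as the step at which FPKM times length, with its halved step, was most frequent (tolerance 1.5%). The step held 57 to 83 of the 1508 to 1822 low values in a library. Counting errors use these pairs and cover counting error only. The limma test was tested on simulated libraries of 13980 genes with 50 genes per size. It recovered 50 of 50 at 2 and at -2 log2 units and 36 of 50 at 1 and at -1, with 10 false calls, at a noise SD of 0.25. The same change was planted in both lines, with independent noise of equal SD for every gene. Recovery of changes that differ between the lines was not tested. Named were the catalytic pairs, activators, assembly chaperones, the 3 highest and 3 lowest members per line at 5 FPKM or more, NFE2L1, POMP, PSMF1, USP14 and pathway genes past 1.5-fold. Other genes named were chosen after their values were seen. A few pathway and marker genes are not reported here. The ISRE motif was added after the first, and sequences of proteins were not used here. Scripts ran in Python 3.11.15 with statsmodels 0.14.6, scipy 1.17.1, pandas 2.3.3, matplotlib 3.10.9 and numpy 2.4.6. Alternatives were pseudocounts, filters, scalings, the length trend, terms of the limma fit and overlapping rows.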

Additional observations from a re-analysis of the deposited data

Results flagged for a closer look

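PSMA2 was singled out because its log2 change went in opposite directions past 1.5-fold in the 2 lines, at -0.63 in 22Rv1 and 1.42 in PC3. The difference between the lines was not tested, since each group is 1 library. Summed with the coding row ENSG00000256646 that shares exon bases with it, the changes were 0.27 and 0.30.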

How the results depend on the processing

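The change past 2-fold, PSMA2 in PC3, kept its sign under every alternative run that held it, at 0.30 with overlapping rows summed. Of the members picked by the naming rule, 5 of 19 in 22Rv1 and 1 of 21 in PC3 changed sign on rescaling, and 3 and 2 with the length trend removed. These counts leave out other members named in the text. Over all measured members, those above 0 went from 33 to 21 of 43 in 22Rv1 on rescaling, and from 25 to 20 of 45 in PC3. With the length trend removed, 26 and 25 were above 0. With the treated library rescaled, the median of the members was -0.0068 in 22Rv1 and -0.039 in PC3, and with the length trend removed 0.057 in 22Rv1. Without the length trend, core minus cap was 0.057 in 22Rv1, and core minus activators was 0.069 in 22Rv1 and 0.081 in PC3, against 0.26 and 0.19. Core minus immunoproteasome in 22Rv1 rests on PSMB10 alone (-0.04) and was 0.11 with a pseudocount of 5, 0.16 with no filter and -0.19 with overlapping rows summed. In PC3 it was 0.40, and 0.54 with a pseudocount of 0.1, 0.23 with 5, 0.26 with no filter and 0.23 with a filter of 5 FPKM. The members past 2-fold in PC3 went from 1 to 0 with overlapping rows summed or PSMA2 left out, both chosen after seeing the data. At 1.5-fold the count was 2 in 22Rv1 with the length trend removed or a pseudocount of 5, against 4, and 1 in PC3 with a pseudocount of 5, overlapping rows summed or PSMA2 left out, against 2. Between the untreated lines, 8 members were at least 2-fold apart, 5 with a pseudocount of 5 and 10 after centring. The median over all 45 members was -0.42 after centring. The limma test called 0 members under every alternative run. Over all genes it called 82, and 33 with a pseudocount of 5, 0 with no filter, 169 with a filter of 5 FPKM, 1591 with rescaled and 202 with centred libraries, 53 with no mean trend and 0 with no replicate block, that is, no term for line. The cause was not tested. With a filter of 5 FPKM, core minus immunoproteasome in 22Rv1 gave no value. No library could be left out with 1 per group. Rare transcripts such as PSMB8 in 22Rv1 lie under what the depth can show.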
